A study of Mus musculus with 2 samples.

Results

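The Hox genes were examined for binding of Foxf2 in the mouse palate, as mapped by anti-FLAG chromatin immunoprecipitation and sequencing (ChIP-seq). The members were the 39 protein-coding mouse genes named Hoxa, Hoxb, Hoxc or Hoxd with a number, of 22232 protein-coding gene symbols with an annotated start. With them were taken all Foxf2-FLAG peaks whose centre lay inside 1 of the 4 Hox clusters or within 100 kb of its ends, which gave 9 of the 9165 peaks. The tissue was palatal shelves, the outgrowths of the maxilla that form the secondary palate, of 50 pairs collected at E13.5 (E for embryonic day) from embryos homozygous for a 3xFLAG tag at the endogenous Foxf2 gene (Foxf2FLAG/FLAG). The 1 ChIP library held 26849463 tags and the 1 input library, as computed from the ratio of the deposited columns, about 19230000. There was no replicate of either library, so every interval below covers counting error only, and an anti-FLAG ChIP of embryos without the tag was not analysed here. Palatal shelves were taken whole and pooled over embryos, and a peak list holds no cell type markers with which to check the tissue.

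Hox genes encode homeodomain transcription factors that give position along the head to tail axis. They lie in 4 clusters, Hoxa, Hoxb, Hoxc and Hoxd, and fall by sequence and position into 13 paralogue groups, from group 1 at the 3′ end of a cluster to group 13 at its 5′ end, the lower groups being in general expressed farther forward. The mesenchyme of the palate comes largely from cranial neural crest of the first pharyngeal arch, which is known as a tissue that does not express Hox genes, whereas Hoxa2 patterns the second arch behind it. Where Hox genes are silent, their clusters are typically covered by Polycomb proteins. Expression was not measured here, so the Hox-negative state of the shelves is background and not a result. Foxf2 belongs to the forkhead family of transcription factors and is made in mesenchyme of the shelves.

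The 9 Foxf2-FLAG peaks of the Hox windows had low tag counts, a median of 18 ChIP tags against 30 over all peaks, and all but 1 of them lay at Hoxa and Hoxd. Per length, the windows held 6.97 peaks per Mb, against 3.75 over the autosomes, a value inside the counting interval of the windows. Hoxa held 4 peaks, Hoxd 4, Hoxb 1 and Hoxc 0. Inside the clusters lay 4 of the 9, in or beside Hoxa9, Hoxb6, Hoxd8 and Hoxd9, and the other 5 were in the flanks. By nearest transcription start site (TSS) within 100 kb, 7 of the 9 were assigned to a Hox gene and the other 2 to the neighbours Lnp and Skap2.

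**Figure D1:**
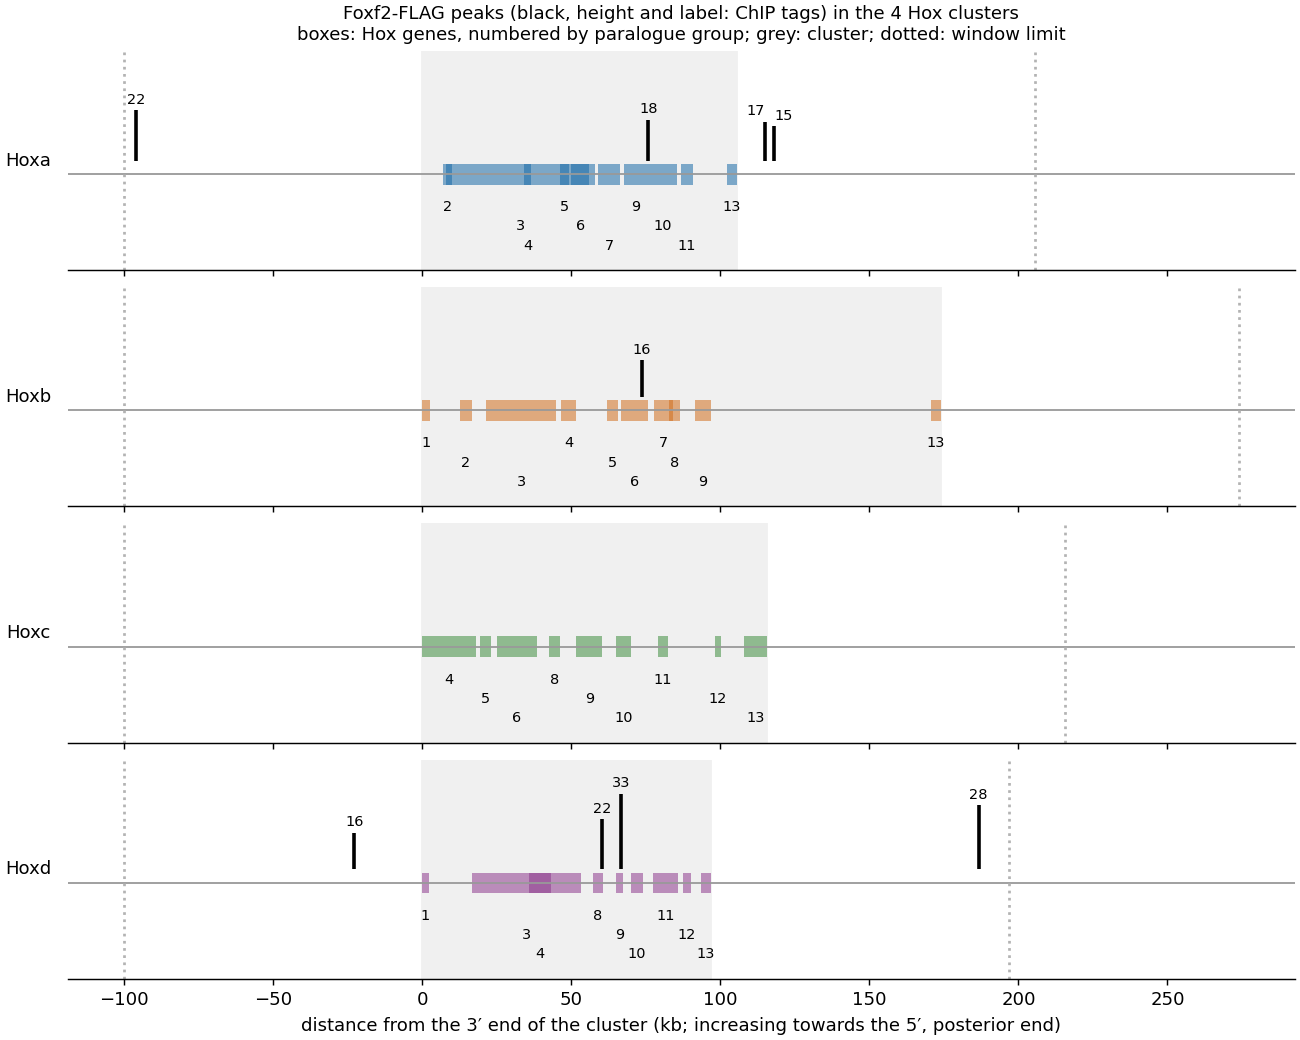
Map of the 4 Hox clusters, with the distance from the 3′ end of each cluster in kb on the horizontal axis and the 5′ end to the right. Boxes are the Hox genes drawn, with their paralogue group below, and black lines are the centres of peaks, with height and label giving ChIP tags: Hoxa and Hoxd show 4 peaks each, Hoxb 1 and Hoxc none.

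The sequences below show the 2 kinds of site found. The forkhead sites were searched on both strands as ATAAACA or the form ATAAATA, and as GTAAACA or the form GTAAATA, in the 200 bp around a peak's centre, and 2 of the 9 peaks held any. Capitals mark these sites in the first 3 lines, which are the Hoxd1 peak (chr2:74625844-74626043, central 200 bp) and the sites of the Hoxa9 peak (chr6:52181215-52181243 and chr6:52181283-52181311, 29 bases around each). The Hoxd1 peak was added to those shown because of its sites, after its values were seen. All sequences are the plus strand of mm9.
Hoxd1 peak: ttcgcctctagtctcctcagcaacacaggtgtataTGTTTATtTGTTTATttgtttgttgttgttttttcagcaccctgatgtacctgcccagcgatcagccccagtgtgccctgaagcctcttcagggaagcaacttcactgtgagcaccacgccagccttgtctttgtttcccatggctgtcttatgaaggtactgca
Hoxa9 peak, first site: tctataagaacATAAACAtcatctttttc
Hoxa9 peak, other site: aagattttgaaGTAAATAaagctagaact
The sites of the Hoxd1 peak stood 1 base apart at the start of a run of TTTG repeats, and read ATAAACA on the minus strand. Those of the Hoxa9 peak lay 46 bp before and 22 bp after the centre on the plus strand, in sequence of 24.1% GC each.

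The next lines show peaks without a central forkhead site, and here capitals mark CG pairs, since these peaks differ most in how many they hold. They are the Hoxd9 peak (chr2:74536293-74536492), the part of the Hoxd8 peak outside untranslated sequence (chr2:74542762-74542961), the Hoxb6 peak (chr11:96155735-96155934) and the Skap2 peak at the 3′ side of Hoxa (chr6:52009350-52009549).
Hoxd9 peak: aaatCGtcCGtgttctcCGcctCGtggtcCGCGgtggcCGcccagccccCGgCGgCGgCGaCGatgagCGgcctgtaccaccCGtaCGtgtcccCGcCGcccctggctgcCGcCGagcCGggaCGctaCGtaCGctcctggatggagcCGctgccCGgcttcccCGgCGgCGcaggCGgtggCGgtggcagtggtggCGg
Hoxd8 peak: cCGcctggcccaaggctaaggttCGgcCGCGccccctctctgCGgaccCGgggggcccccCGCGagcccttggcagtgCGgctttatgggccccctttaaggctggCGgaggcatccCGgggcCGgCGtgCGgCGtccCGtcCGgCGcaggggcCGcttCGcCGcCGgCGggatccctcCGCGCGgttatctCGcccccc
Hoxb6 peak: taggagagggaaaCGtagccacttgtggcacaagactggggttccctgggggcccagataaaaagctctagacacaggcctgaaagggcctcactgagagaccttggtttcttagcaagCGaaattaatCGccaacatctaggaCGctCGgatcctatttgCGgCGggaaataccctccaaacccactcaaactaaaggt
Skap2 peak: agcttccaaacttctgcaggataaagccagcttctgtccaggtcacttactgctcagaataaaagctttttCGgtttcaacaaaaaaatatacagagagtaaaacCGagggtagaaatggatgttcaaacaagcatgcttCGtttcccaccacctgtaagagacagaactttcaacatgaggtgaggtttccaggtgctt
The Hoxd9 stretch held 31 CG pairs and the Hoxd8 stretch 27, against 7 in the Hoxb6 stretch and 3 in the Skap2 stretch. The Hoxd8 stretch lies mostly before its peak's centre, and the central 200 bp of the Hoxd8 peak held 34 CG pairs. The Hoxd9 and Hoxd8 stretches were 76.0% and 77.5% GC, the Hoxb6 and Skap2 stretches 51.5% and 42.0%.

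In Hoxd (chr2:74506367-74603200 from Hoxd13 to Hoxd1), binding was called at neighbouring genes of the middle of the cluster, Hoxd9 and Hoxd8. Both genes are expressed in trunk and limb and belong to paralogue groups 9 and 8. The Hoxd9 peak (chr2:74536004-74536780) held 33 ChIP tags and no input tag, the most ChIP tags of any of the 9 peaks. With the 3 input tags that a count of 0 allows and the ChIP tags taken as fixed, its excess was at least 7.88-fold; with counting error in both libraries the exact 95% lower limit was 6.06-fold. The authors' deposited fold of 47.3 counts the missing input as 0.5 tags. Its centre lay 655 bp downstream of the Hoxd9 TSS in the coding part of an exon. The peak was 776 bp wide, its score, the peak caller's own value, was 23, and the authors' deposited Poisson p-value was 2.8e-30.

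The Hoxd8 peak (chr2:74542630-74543266) held 22 ChIP tags against 1 input tag, a 15.8-fold excess (95% interval 2.55 to 650.4), with a score of 18. Hoxd8 has 3 annotated starts, and the centre lay 276 bp downstream of the first, 14 bp upstream of the second and 261 bp upstream of the third, in an intron of an annotated form. The interval of the Hoxd8 excess is wide because it rests on 1 input tag.

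The flanks of Hoxd each held 1 peak. On the 3′ side, towards Mtx2, the Hoxd1 peak (chr2:74625693-74626193) lay in intergenic sequence 24.9 kb downstream of the Hoxd1 TSS, with 16 ChIP tags and no input tag, an excess of at least 3.82-fold at the floor of 3 input tags (exact 95% lower limit 2.76). Hoxd1, of paralogue group 1, is the gene at the 3′ end of its cluster, and its peak had a score of 17, the lowest score on the list. On the 5′ side, 89.8 kb beyond Hoxd13, the peak at chr2:74416303-74416803 lay 21 bp from a start of Lnp, a gene of the endoplasmic reticulum. This Lnp peak had 28 ChIP tags against 2 input tags (10.03-fold, 95% interval 2.53 to 86.9) and the highest score of the 9, 27. It is a promoter peak of another gene, and most of its sequence is untranslated and not shown.

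In Hoxa, on chromosome 6, the peaks lay at Hoxa9 and upstream of Hoxa13. The Hoxa9 peak (chr6:52181025-52181525) held 18 ChIP tags and no input tag, an excess of at least 4.30-fold at that floor (exact 95% lower limit 3.15), with a score of 19. Hoxa9 and Hoxd9 are paralogues, so group 9 was the 1 group with a peak in more than 1 cluster. The centre lay 187 bp upstream of the farthest annotated start of Hoxa9 and 1.01, 3.91 and 5.12 kb upstream of its other 3 starts, in what the annotation gives as 3′ untranslated sequence of Hoxa10. The gene of the microRNA Mir196b, which lies between Hoxa9 and Hoxa10 and belongs to a family that targets Hox messages, started 1.11 kb from the centre. Of the 6 microRNA genes examined in the clusters, it was the nearest to a peak; the others were 21.2 to 197 kb away. The microRNA genes were added after the peaks were seen.

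Upstream of Hoxa13, the gene at the 5′ end of the cluster that acts in distal limb and genital development, lay a pair of peaks in intergenic sequence. The nearer (chr6:52220028-52220528) was 9.4 kb upstream of the TSS and held 17 ChIP tags against 1 input tag (12.2-fold, 95% interval 1.91 to 508.9). The farther (chr6:52223220-52223720) was 12.6 kb upstream and held 15 against 1 (10.7-fold, 1.65 to 452), and both scored 17. Where genes of every type could take a peak, both went to the lincRNA gene Gm15053, 7.51 and 10.7 kb away, and Hoxa13 lost its assignment. Their intervals reach below 2-fold.

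The last peak of the Hoxa window was its outermost. It lay 95.9 kb beyond the 3′ end of the cluster (chr6:52009199-52009699), 46.9 kb upstream of Skap2, which encodes an adaptor protein of Src kinase signalling. It had 22 ChIP tags and no input tag, an excess of at least 5.25-fold at the floor of 3 input tags (exact 95% lower limit 3.92), and a score of 19.

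Hoxb (chr11:96055630-96229570) held 1 peak and Hoxc (chr15:102751534-102867274) held none. The Hoxb6 peak (chr11:96155584-96156084) lay in an intron of Hoxb6, 2.04 kb downstream of 1 start and 4.43 kb upstream of the other, and had 16 ChIP tags against 1 input tag (11.5-fold, 95% interval 1.78 to 480.7) and a score of 18. No peak lay within 136 kb of any start of a Hoxc gene. The Hoxc window spans 315.7 kb, so its count of 0 allows up to 9.50 peaks per Mb by the floor of 3 counts and 11.7 by the exact Poisson 95% interval. Both are above the 3.78 per Mb of chromosome 15, so at this number of peaks a lower density in Hoxc was not detectable.

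Over the 4 windows together, 1.292 Mb, the density was 6.97 peaks per Mb (exact Poisson 95% interval 3.19 to 13.2), against 3.75 per Mb over the autosomes (3.67 to 3.83). The interval of the windows includes the autosomal value. The cluster bodies had 8.13 per Mb (2.22 to 20.8) and the flanks 6.25 (2.03 to 14.6). By window, Hoxd had 13.48 per Mb (3.67 to 34.5), Hoxa 13.09 (3.57 to 33.5) and Hoxb 2.67 (0.0677 to 14.9). Their chromosomes had 3.97 per Mb (chromosome 2), 3.36 (chromosome 6) and 4.34 (chromosome 11). The value of chromosome 6 lay just below the Hoxa interval and the others inside theirs, and no difference was tested. The intervals of the Hoxa, Hoxb, Hoxc and Hoxd windows overlap, so with 9 peaks the order of the clusters is a description.

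The 100 kb limit separated the following peaks. Just inside it were the Skap2 peak at 95.9 kb from Hoxa and the Lnp peak at 89.8 kb from Hoxd. Just outside it were peaks at 128.9 kb on the 5′ side of Hoxb (score 22, at the start of Ube2z), at 133.6 kb on the 3′ side of Hoxc (score 17), at 137.4 kb on the 3′ side of Hoxd (score 19, assigned to Mtx2) and at 156.9 kb on the 5′ side of Hoxa (score 17). A stronger peak, with 62 ChIP tags and a score of 63, lay 159.7 kb on the 5′ side of Hoxd, 69.7 kb from Lnp. With flanks of 200 kb the windows held 16 peaks.

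By gene, 6 of the 39 Hox genes (15.4%) had an assigned peak, against 22.1% of all protein-coding genes (4914 of 22232). They were Hoxa9, Hoxa13, Hoxb6, Hoxd1, Hoxd8 and Hoxd9, of which Hoxa13 had 2 peaks and the others 1 each. By cluster they were 2 of 11 Hoxa genes, 1 of 10 Hoxb genes, 0 of 9 Hoxc genes and 3 of 9 Hoxd genes. By position along the clusters they were 1 of 12 genes of groups 1 to 4, 2 of 11 of groups 5 to 8 and 3 of 16 of groups 9 to 13. No gene of groups 2, 3, 4, 5, 7, 10, 11 or 12 had one, and Hoxa2 lay 65.9 kb from its nearest peak.

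The share of Hox genes is read against how closely they are packed. The sequence nearer to a gene's own starts than to those of any other, within 100 kb, had a median of 10.5 kb for Hox genes and 46.6 kb for all genes. Counted per length of this sequence, Hox genes had 7 peaks in 0.710 Mb, 9.85 per Mb (exact Poisson 95% interval 3.96 to 20.3), against 4.33 per Mb over all genes. So the share of Hox genes with a peak was below that of all genes while the peaks per length were above it, and neither difference was tested.

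A peak within 1 kb of a start does not depend on which neighbouring gene is nearest, though 1 peak can count for several genes. It was present at 3 Hox genes (7.69%), Hoxa9, Hoxd8 and Hoxd9, against 11.3% of all genes. Hox promoters, taken as 250 bp before to 50 bp after the 5′ end of the gene, had a median GC content of 55.3%, the same as all genes, and ranged from 34.3% at Hoxa9 to 81.0% at Hoxa13. Of the 11 Hox genes with a promoter GC content of at least 60%, 0 had such a peak, against 21.5% of the 7852 genes of this kind. Hoxd9 lay just under that limit at 59.7%, and its peak had a central GC content of 76.0%. Hoxd8 had 46.7% at its 5′ end, but its peak lay 14 bp from another start and had a central GC content of 78.5%. So this count does not cover GC-rich sequence at other starts.

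Most Hox genes outside Hoxc lay near a peak. The median distance from a Hox gene's start to the nearest peak was 23.4 kb, against 83.4 kb for all genes. A peak lay within 25 kb of 21 Hox genes (53.8%, all genes 25.8%) and within 100 kb of 29 (74.4%, all genes 54.9%), but within 5 kb of 5 (12.8%, all genes 14.4%). Hoxd genes were 0.014 to 30.02 kb from a peak, Hoxb genes 2.04 to 100.2 kb and Hoxc genes 136 to 249 kb. The nearest of the Hoxa genes, Hoxa9, was 0.187 kb from one. The members share these peaks, since a single peak is the nearest one for several neighbouring genes.

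**Figure D2:**
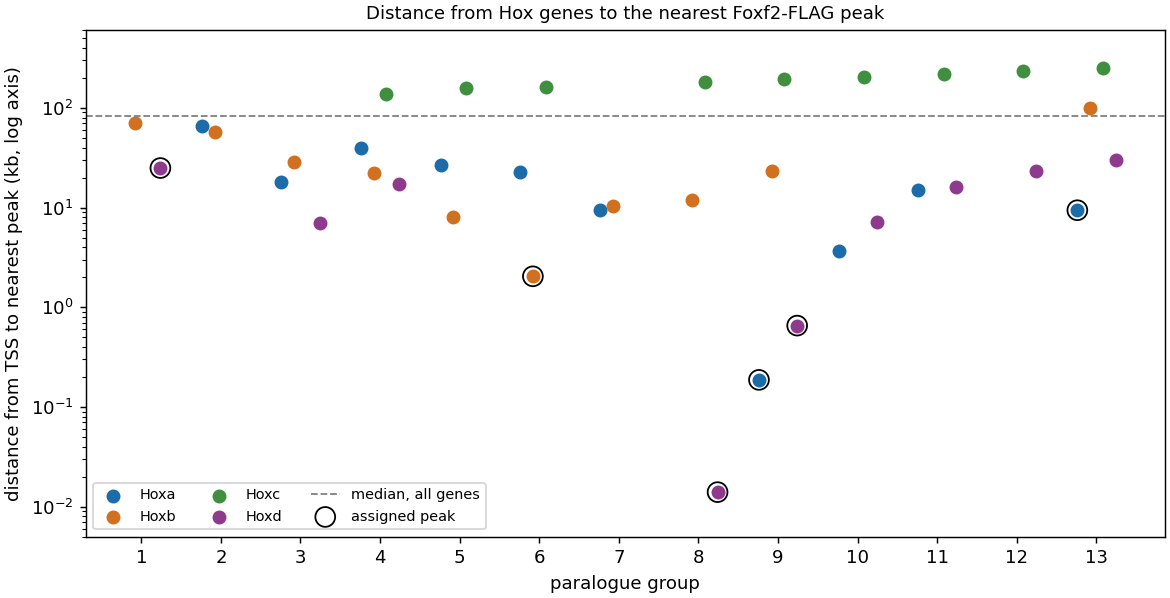
Distance from the nearest annotated start of the Hox genes plotted to the nearest peak centre (log axis, kb) by paralogue group, coloured by cluster; black rings mark the 6 genes with an assigned peak and the dashed line the median of all genes, 83.4 kb. Every Hoxc gene lies above the line, at 136 kb or more, and the 3 genes under 1 kb are Hoxa9, Hoxd8 and Hoxd9.

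As a set, the 9 peaks were at the weak end of the list. Their ChIP tags ran from 15 to 33 with a median of 18, against a median of 30 over all peaks, and 8 of the 9 were below that median. Scores ran from 17 to 27 with a median of 18 against 25, and again 8 of 9 were below; the best of them, the Lnp peak, ranked 4033rd of 9165. With only peaks scored above the median, the Lnp peak was the 1 peak left and 0 Hox genes had an assigned peak, against 12.1% of all genes. The authors' fold had a median of 15.8 against 12.9, and 5 of 9 peaks were above it, 4 of which had no input tag.

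A peak with no input tag was 44.4% of the Hox set (4 of 9, the Hoxd9, Hoxa9, Hoxd1 and Skap2 peaks) and 6.4% of all peaks. Among the 5178 peaks with 15 to 33 ChIP tags it was 10.5%. For these 4 peaks the excess has no upper limit, and the exact 95% lower limits ran from 2.76-fold to 6.06-fold.

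**Figure D3:**
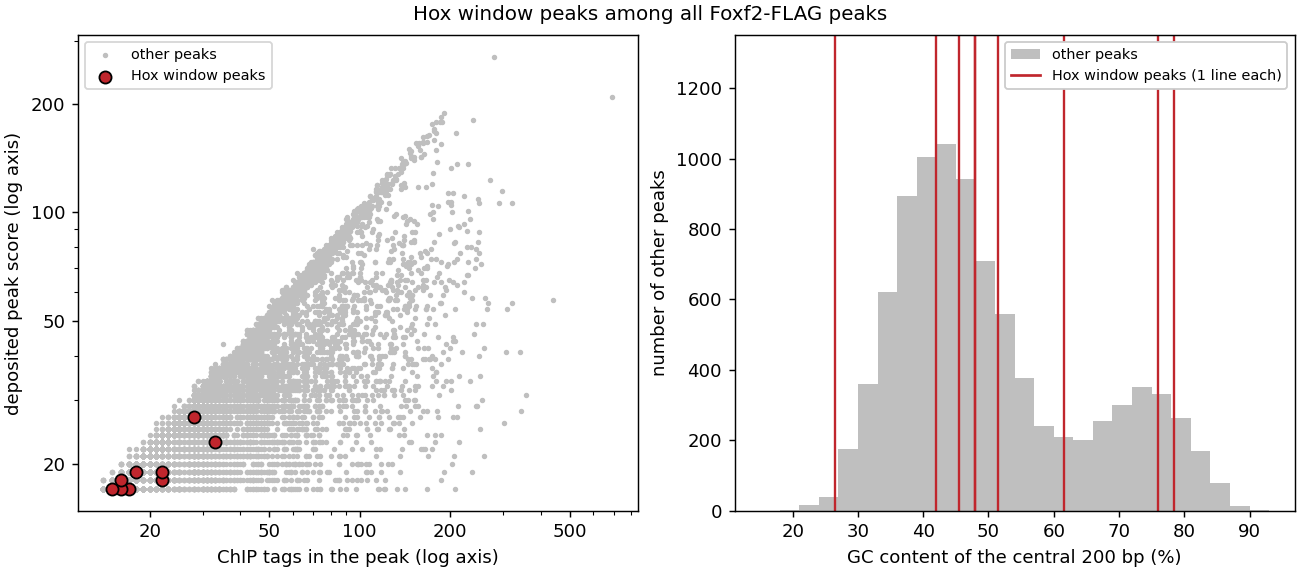
Left, ChIP tags and deposited score of each of the 9165 peaks (both axes log), with the 9 Hox window peaks in red at 15 to 33 tags and scores of 17 to 27, in the lower left corner. Right, GC content of the central 200 bp, with grey bars counting the other peaks and 1 red line for each Hox window peak, from 26.5% to 78.5%; a pair of peaks at 48.0% share a line.

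Base composition split the 9 peaks. The Hoxd8, Hoxd9 and Lnp peaks, each within 1 kb of a start, had central GC contents of 78.5%, 76.0% and 61.5%. The Hoxa9 peak had 26.5%, although it too lay within 1 kb of an annotated start. The other 5 lay between 42.0% and 51.5%, and over all peaks the median was 71.0% within 1 kb of a start and 43.0% beyond it. The hexamer GGGCGG, a core of SP and KLF binding sites, was searched on both strands and was present in the centres of the Hoxd8 and Hoxd9 peaks and of no other, and in 17.9% of all peaks. Among all peaks within 1 kb of a start, where both of these lay, its share was 54.7%. CCAAT was present in the Hoxa9 peak alone (21.2% of all peaks), and the homeodomain core TAATTA in none of the 9 (5.68%).

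Over all peaks, a central forkhead site was present in 9.89% of those within 1 kb of a start and 51.5% of those beyond it. The Hoxa9, Hoxd8, Hoxd9 and Lnp peaks lay within 1 kb. Forkhead sites were present in the centres of 2 of 9 peaks (22.2%), as shown above for Hoxa9 and Hoxd1, against 40.8% of all peaks and 33.3% of peaks with 15 to 33 ChIP tags. In the whole peak they were present in 5 of 9, against 64.3% of all peaks: the Skap2 peak added ATAAACA 158 bp from its centre, and the Hoxa13 peaks ATAAACA and ATAAATA at 207 and 221 bp. None of the 9 held GTAAACA in the centre, against 15.3% of all peaks. The Hoxb6, Hoxd8, Hoxd9 and Lnp peaks held no forkhead site in this search at any position. In the promoter windows, 10 of 39 Hox genes (25.6%) held a forkhead site, against 13.9% of all genes. Of the 3 with a promoter peak only Hoxa9 did, and its 2 sites there are the same ones as in its peak's centre.

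Of 11 other protein-coding genes with a start in the windows, 2 had an assigned peak, where 22.1% of all genes had one. They were Lnp with 2 and Mtx2 with 1, and those of Mtx2 and the second of Lnp lay outside the windows. The even-skipped homeobox genes Evx1 and Evx2, which stand at the 5′ ends of Hoxa and Hoxd, had none, with the nearest peaks 40.0 and 38.5 kb away.

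Lists were made of TALE homeobox, upstream regulator, Polycomb, and trithorax and demethylase genes. In each of these 4 lists at least 50.0% had an assigned peak, against 15.4% of Hox genes and 22.1% of all genes. These differences were not tested, and the lists also differ in how much sequence lies nearest to their genes: its median was 59.3 to 119 kb per list, against 10.5 kb for Hox genes and 46.6 kb for all genes. The 10 TALE homeobox genes include the Meis and Pbx genes, whose proteins bind DNA together with Hox proteins. Of the 10, 6 had an assigned peak, all 6 with a peak within 1 kb of a start. Meis2 had 7 peaks, the best with 163 ChIP tags against 10 input tags (11.7-fold, score 157), and Tgif1 had 2 with a best score of 78.

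Of 12 genes that regulate Hox expression upstream, 6 had an assigned peak (median surroundings 64.8 kb). The retinoic acid breakdown enzyme gene Cyp26b1 led with 6 peaks (best score 136, 229 ChIP tags against 10 input tags), followed by the retinoic acid receptor genes Rarg (4 peaks, score 39) and Rara (2 peaks, score 25). The caudal-type genes Cdx1, Cdx2 and Cdx4, activators of trunk Hox genes, had none. Of 17 Polycomb genes, which silence Hox clusters, 10 had an assigned peak (58.8%, median surroundings 59.3 kb), with Cbx7 (score 59), Jarid2 (51) and Cbx2 (31) highest. Of 8 trithorax and demethylase genes, 4 had an assigned peak (median surroundings 71.3 kb), Kdm5b (score 57), Kmt2d (39) and Kmt2a (32) highest.

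Of 12 other homeobox genes beside or related to the clusters, 5 had an assigned peak (41.7%, against 22.1% of all genes, with median surroundings of 68.3 kb), Meox2 (score 157), Mnx1 (52) and Meox1 (21) highest. Of 6 Dlx genes, which also lie in pairs, 3 had one (Dlx2 at a score of 38, Dlx4 at 31, Dlx5 at 23), and of 6 Irx genes, which lie in clusters of 3, 3 had one (Irx1 at 51, Irx3 at 32, Irx5 at 22). The median surroundings of Dlx genes were 59.4 kb and of Irx genes 162 kb. The best scores of the Dlx and Irx lists, 38 and 51, compare with 23 for the best peak assigned to a Hox gene.

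**Figure D4:**
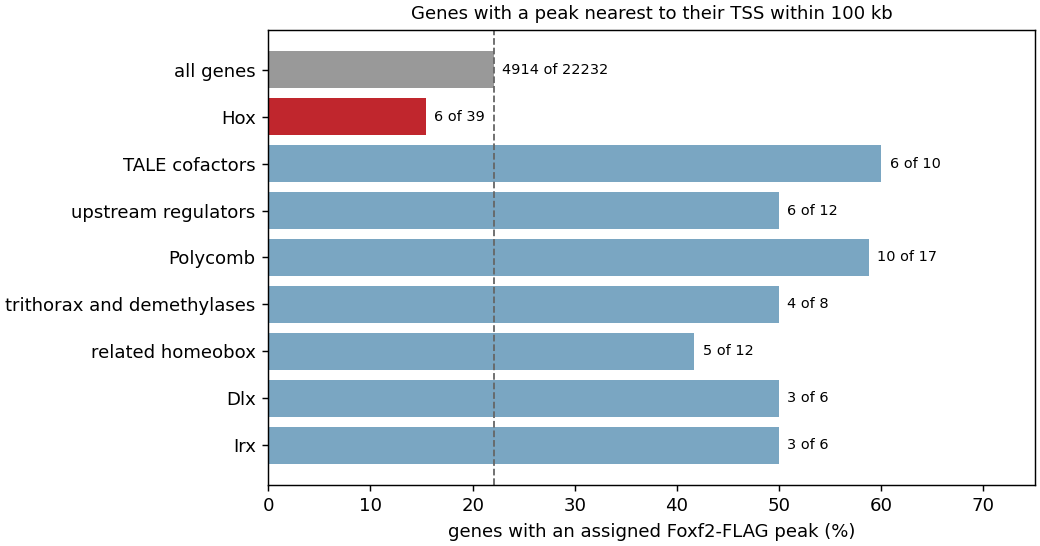
Share of genes with an assigned peak (horizontal axis, percent) for all genes, the 39 Hox genes and 7 related lists, with the counts beside each bar and the dashed line at the 22.1% of all genes. The Hox bar, 15.4%, is the 1 list below the line, and the others lie above it, from 41.7% upwards; lists differ in how much sequence lies nearest to their genes.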

How the data were processed

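Per the file headers, HOMER findPeaks (histone style) called peaks on 1 anti-FLAG ChIP library against 1 input library, merging neighbouring 500 bp peaks, with at most 1 tag per position and a 10-fold excess required over input and over the surrounding 10000 bp. Per the submitters' processing notes, Bowtie 1.0.0 and SAMtools 0.1.19 were used on build mm9, and no version of HOMER is named. Deposited signal values are ChIP tags per 10000000, and turned back into tags they differed from whole numbers by at most 0.134 (tolerance 0.15). The authors' score, p-value and fold (the ratio of ChIP tags, at input depth, to input tags, with 0.5 written for none) were used to describe and rank peaks only.

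Peaks were placed by their centre on NCBIM37 (the assembly of mm9) with GENCODE vM1 genes, counted by symbol and by every annotated protein-coding start, in Python 3.11.15 with pysam 0.24.0. All peak ends fitted the chromosome lengths. Folds carry exact 95% conditional intervals, densities exact Poisson ones (SciPy 1.17.1), and a count of 0 input tags was set to 3 for a lower bound. PCR copies are not independent molecules, and at most 1 tag per position was counted. With no replicate of either library, these intervals cover counting error only. No test between groups was possible with 1 library each, and lists are described by counts beside all genes. Assignment and motif search were tested on simulated data. Hox genes and peaks were all named by rule if a peak was assigned, within 1 kb or in the gene, and of each related list the 3 genes with the highest score; a few of the values this rule or the figures would give are not reported here. Related lists matched in full, Kmt2a and Kmt2d by older symbols. The members and lists were chosen with earlier results of these data known. Alternatives were window, peak threshold, distance, kind of start and motif.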

Additional observations from a re-analysis of the deposited data

How the results depend on the processing

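Of 21 alternatives to the 4 counts, 13 stayed within 1.5 times of the value reported. The number of peaks in the windows, 9, was 4 with no flank, 16 with flanks of 200 kb, 1 with peaks scored above the median and 5 with at least 15-fold excess. The number of Hox genes with an assigned peak, 6, and with a promoter peak, 3, were both 0 with peaks scored above the median; under the other alternatives they were 4 to 6 and 2 to 3. The number of peaks with a forkhead site, 2, was 5 anywhere in the peak and 0 with GTAAACA alone. Each of these follows from fewer or more peaks, longer or shorter sequence or a stricter site. No paired analysis was possible because there is 1 ChIP and 1 input library. Depth limits every peak here: at most 33 ChIP tags and 2 input tags lie behind each.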
